A study of Mus musculus with 6 samples.

Results

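Nodal is a secreted ligand of the TGF-beta superfamily that signals, like the activins, through type I and type II receptor kinases to SMAD2 and SMAD3, which enter the nucleus with SMAD4. It patterns the early embryo by inducing mesoderm and endoderm, and it is also made by pluripotent cells in culture. The pathway feeds back on itself, because Nodal signalling induces its own gene and those of its secreted inhibitors, the LEFTY proteins, and because SMAD7, which is induced by TGF-beta family ligands, blocks the receptors from inside the cell.

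The genes described here are 8 members of this pathway, chosen as a fixed list of Ensembl gene identifiers out of 17144 genes on the arrays. They are the ligands Nodal (ENSMUSG00000037171_at) and Tgfb2 (ENSMUSG00000039239_at), the type I activin receptor Acvr1b (ENSMUSG00000000532_at), the receptor-activated SMADs Smad2 (ENSMUSG00000024563_at) and Smad3 (ENSMUSG00000032402_at), the secreted inhibitors Lefty1 (ENSMUSG00000038793_at) and Lefty2 (ENSMUSG00000066652_at), and the intracellular inhibitor Smad7 (ENSMUSG00000025880_at). All 8 had a row in the deposited table. RNA was measured on Affymetrix mouse arrays in 3 biological replicates each of wild type ESCs and NPCs, 1 array per replicate. The ESCs were the blastocyst-derived line V6.5, on a 129SvJae/C57B6 F1 background, grown with fetal bovine serum and the cytokine LIF. The NPCs were made from that line by differentiation in vitro and were kept dividing on laminin in N3 medium with the growth factors bFGF and EGF. Both groups thus share 1 parental line and genotype, and the labels do not say whether the NPC replicates came from separate differentiations, so that p-values measure the spread between these arrays. The medium differed with the cell type, so an effect of medium cannot be told apart from one of cell type. Values are robust multi-array average (RMA) signals on the log2 scale, in which a difference of 1 is a doubling, and signals of different genes were not set against each other as amounts of RNA.

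Between ESCs and NPCs, the ligand Nodal and all 3 inhibitors fell, each by a measured 25.1-fold or more, Tgfb2 rose 1.95-fold, and the receptor and the SMAD transducers did not pass the test. A gene was called different when limma, fitted over all genes, gave a Benjamini-Hochberg adjusted p under 0.05 and the means differed by more than 1.5-fold. By this rule 5 of the 8 genes were called, 4 lower and 1 higher in NPCs, where 34.1% of all genes were called, 18.7% as lower and 15.4% as higher. The median difference of the 8 genes was -2.34 on the log2 scale, against -0.036 over all genes. All NPC arrays lay below all ESC arrays for 4 of the 8 genes and above for 1, where 32.6% and 26.1% of all genes did so. A fall of more than 4 on the log2 scale, which all 4 lower genes showed, was called at 1.1% of all genes. That cut lies below the smallest of the 4 falls, and the genes were listed with earlier results of these data known. The shares of all genes are therefore given as description and not as a test of the list. No detection check was made, and a gene whose NPC signal is not above background has a fall that is only a lower bound. In bulk RNA, fewer cells that express a gene cannot be told apart from less RNA per cell.

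**Figure D1:**
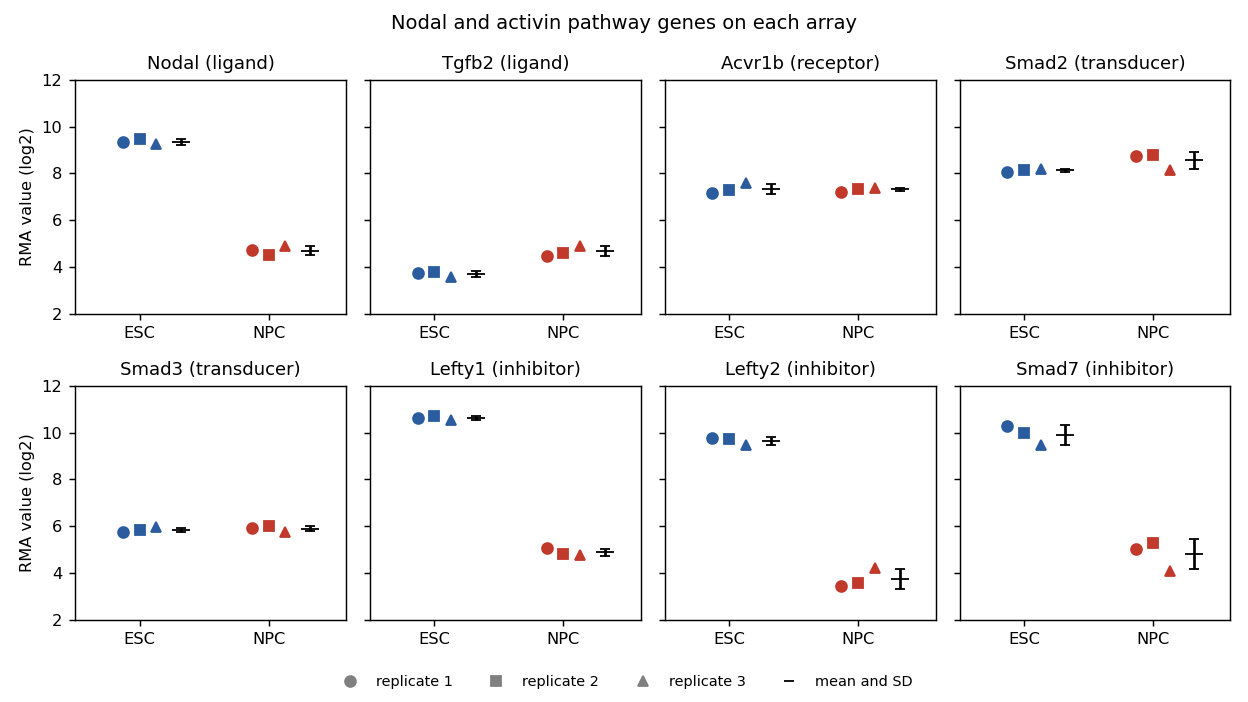
RMA value (log2) of each pathway gene on each array, with ESC arrays in blue, NPC arrays in red, a marker shape for each replicate and black bars for the mean ± SD of 3 arrays. Nodal, Lefty1, Lefty2 and Smad7 stood above 9.2 on all ESC arrays and below 5.3 on all NPC arrays, Tgfb2 was higher in NPCs, and the values of Acvr1b, Smad2 and Smad3 overlapped between the cell types.

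The arrays were checked against their labels. Pou5f1 (OCT4), which marks pluripotent cells, read from 12.42 to 12.46 on ESC arrays and from 3.61 to 3.83 on NPC arrays, and Fabp7, a gene of radial glia and neural progenitors, read from 3.72 to 3.85 on ESC arrays and from 12.76 to 13.53 on NPC arrays. Pou5f1 was the only 1 of 10 pluripotency genes with a name at hand. Of 10 neural progenitor genes 8 had a name and all 8 were called higher in NPCs, but names came mostly from a published list sorted by the rise in NPCs. NPC replicate 3 stood apart from the other NPC arrays, with r = 0.978 to 0.979 to them across genes against 0.997 between replicates 1 and 2, and there were 686 genes at which it lay more than 1 log2 unit from their mean. The median signal of an array ranged from 5.75 to 5.76 for ESCs and from 5.59 to 5.61 for NPCs. Since the smallest p of an exact permutation test with 3 arrays a side is 0.1, the tests given are those of limma, two-sided.

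Promoter windows are shown for the ligands, Nodal as the called gene that fell and Tgfb2 as the gene that rose, since SOX2, the factor under study, acts in both cell types through SOX motifs in DNA. The study placed most SOX2 sites away from promoters, at distances that these windows do not cover. Each window is the 250 bases before the transcription start given by RefSeq for build GRCm38.p6, 5′ to 3′ on the strand of the gene. The Nodal window is chr10:61417722-61417971 on the plus strand and the Tgfb2 window is chr1:186705990-186706239 on the minus strand. RefSeq also places a start of Tgfb2 farther upstream, so that this window lies within the annotated span of the gene. Capitals mark matches on either strand to the letters CAGAC (a SMAD element), TGTNNATT (a FOXH1 motif), CNTTGT (a SOX core), ATGCAAAT (the octamer of POU factors) or TATAAA (the TATA box).
Nodal: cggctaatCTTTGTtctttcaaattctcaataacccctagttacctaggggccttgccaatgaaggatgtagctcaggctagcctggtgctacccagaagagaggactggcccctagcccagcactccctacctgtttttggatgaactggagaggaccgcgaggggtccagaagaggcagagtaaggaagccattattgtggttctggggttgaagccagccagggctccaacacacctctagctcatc
Tgfb2: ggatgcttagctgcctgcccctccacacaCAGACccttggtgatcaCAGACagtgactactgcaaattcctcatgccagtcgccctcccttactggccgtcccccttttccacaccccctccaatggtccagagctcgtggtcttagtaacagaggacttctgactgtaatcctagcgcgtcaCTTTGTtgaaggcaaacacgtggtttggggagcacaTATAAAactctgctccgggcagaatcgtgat

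The Nodal window held 1 match, to the SOX core, at bases -242 to -237 from the start. The Tgfb2 window held 2 SMAD elements, at -221 to -217 and at -204 to -200, 1 SOX core at -67 to -62 and 1 TATA box at -31 to -26. No other motif overlapped these matches. Such matches are common: among 32851 windows of the same length in the RefSeq table, 42.2% held CAGAC, 36.3% CNTTGT, 12.4% TATAAA, 10.9% TGTNNATT and 1.6% ATGCAAAT. Windows were at hand for 4 of the 8 genes, and those of Acvr1b and Smad3 held none of the 5 motifs. A match describes letters in a window and not a bound site.

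Nodal itself, the ligand, read 9.33, 9.47 and 9.23 on the ESC arrays and 4.72, 4.49 and 4.88 on the NPC arrays. The cell types were far apart, since the highest NPC array lay 4.35 below the lowest ESC array. Nodal fell by 4.65 log2 units (limma adjusted p = 2.76e-07, standard error 0.12), a 25.1-fold change with a 95% confidence interval from 20.5 to 30.6. Its mean was 9.35 ± 0.12 (SD, n = 3 arrays) in ESCs and 4.70 ± 0.19 (SD, n = 3 arrays) in NPCs. Its percentile among all genes of the array dropped from 91.4 to 38.1.

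Lefty1, an inhibitor that binds Nodal and its co-receptors, read 10.62, 10.71 and 10.55 in ESCs and 5.06, 4.83 and 4.78 in NPCs. Replicates of either cell type were close together, with SDs of 0.079 and 0.15 (n = 3 arrays each). The gene fell by 5.74 log2 units (limma adjusted p = 5.51e-08, standard error 0.10), or 53.3-fold with a 95% confidence interval from 45.2 to 62.9. Its percentile went from 97.1 to 40.8.

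Lefty2, its close paralog and likewise a secreted inhibitor of Nodal, read 9.76, 9.73 and 9.46 in ESCs and 3.44, 3.56 and 4.22 in NPCs, where replicate 3 was the highest. Lefty2 fell by 5.91 log2 units (limma adjusted p = 9.83e-07, standard error 0.21), a measured 59.9-fold change whose 95% confidence interval, from 42.5 to 84.5, covers the spread between arrays alone. Its percentile went from 93.1 to 20.8. Pou5f1 reads 3.61 to 3.83 on the same NPC arrays. Lefty2 lay below that range in replicates 1 and 2 and above it in replicate 3. Neither gene was checked against background. The NPC values of Lefty2 are thus not shown to be above background, and the fold may be a lower bound. Without NPC replicate 3, Lefty2 fell by 6.15. Whether probes of either paralog also read transcripts of the other was not tested.

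Smad7, which competes with SMAD2 and SMAD3 for the type I receptors and recruits ubiquitin ligases to them, varied most between replicates among the 8 genes. It read 10.29, 9.99 and 9.46 in ESCs and 5.04, 5.29 and 4.08 in NPCs, the last being replicate 3. Its SD of 0.42 in ESCs (n = 3 arrays) was at percentile 99.7 of the SDs of all genes, and that of 0.64 in NPCs (n = 3 arrays) at percentile 96.6. Smad7 nonetheless fell by 5.11 log2 units (limma adjusted p = 1.95e-05, standard error 0.34), a 34.5-fold change with the widest 95% confidence interval of the lower genes in log2 terms, from 19.7-fold to 60.6-fold. The lowest ESC array was 4.17 above the highest NPC array.

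The 95% confidence intervals on the log2 scale were -4.94 to -4.36 for Nodal, -5.98 to -5.50 for Lefty1, -6.40 to -5.41 for Lefty2 and -5.92 to -4.30 for Smad7. No order is read from these falls, because the NPC signals they rest on were not checked against background and no test between the genes was run.

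**Figure D2:**
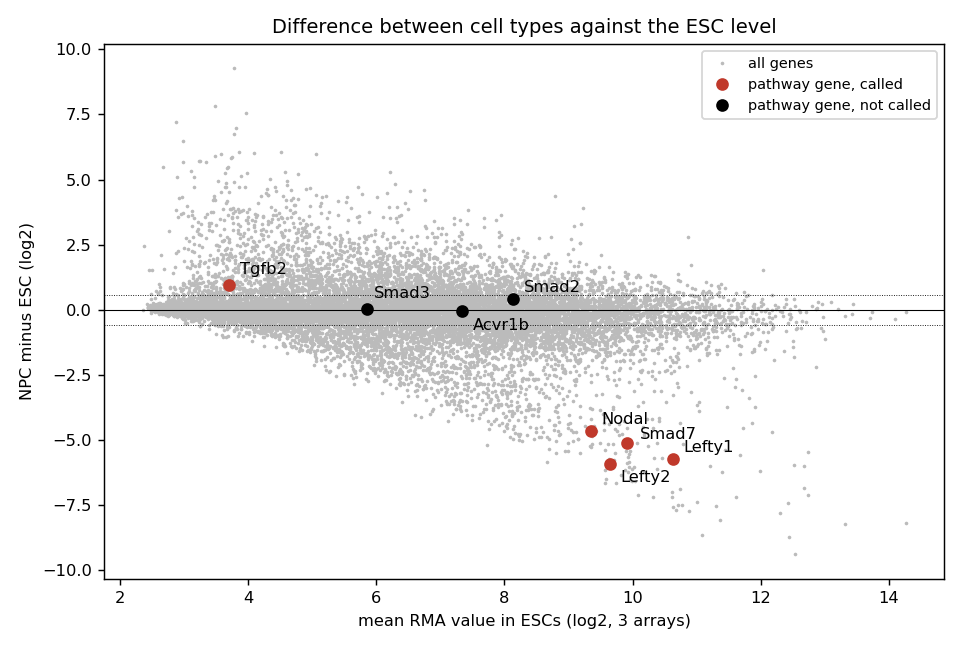
Mean RMA value in ESCs (log2, 3 arrays) against the difference of NPCs from ESCs (log2) for all 17144 genes in grey, with the pathway genes in red where called and in black where not. Dotted lines mark 1.5-fold. Nodal, Lefty1, Lefty2 and Smad7 lie between -4.65 and -5.91, while Acvr1b, Smad2 and Smad3 lie within the dotted lines.

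The other ligand went the opposite way. Tgfb2, a TGF-beta ligand that uses other receptors of the family and the same SMAD2 and SMAD3 proteins, read 3.75, 3.80 and 3.57 in ESCs and 4.48, 4.61 and 4.91 in NPCs. The groups did not overlap, with 0.69 between the nearest arrays. The gene rose by 0.96 log2 units (limma adjusted p = 0.000646, standard error 0.13), or 1.95-fold with a 95% confidence interval from 1.58 to 2.41. Its signal was in the lower part of the range in both cell types, at percentile 19.2 in ESCs and 37.7 in NPCs, and detection calls were not used here. The ESC values of Tgfb2 lie around the 3.61 to 3.83 that Pou5f1 reads on NPC arrays. They are not shown to be above background, and the fold may be a lower bound. Because the change was under 2-fold, the gene was not called with that stricter threshold.

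The receptor and both transducer genes were not called. Acvr1b, which encodes the type I receptor ALK4 that Nodal and activin share, read 7.16, 7.29 and 7.57 in ESCs and 7.22, 7.32 and 7.39 in NPCs. All NPC arrays lay within the range of the ESC arrays. The difference was -0.031 log2 units (limma adjusted p = 0.865, standard error 0.12), and its sign turned with the scaling of the arrays, to 0.016 after quantile normalization and 0.12 after centring on the median. The 95% confidence interval reaches from 1.25-fold lower to 1.20-fold higher, which is narrower than the 1.5-fold threshold on both sides.

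Smad3, whose protein enters the nucleus once phosphorylated and binds DNA, read 5.77, 5.83 and 5.95 in ESCs and 5.91, 6.004 and 5.77 in NPCs, with the groups interleaved. The difference was 0.042 log2 units (limma adjusted p = 0.762, standard error 0.096), with a 95% confidence interval from 1.14-fold lower to 1.20-fold higher.

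Smad2, the other receptor-activated SMAD of this branch, depended on 1 array. It read 8.08, 8.13 and 8.19 in ESCs, and 8.72 and 8.79 in NPC replicates 1 and 2, but 8.15 in NPC replicate 3, inside the ESC range. The difference of 0.42 log2 units (limma adjusted p = 0.0800, standard error 0.17) was not called, and its 95% confidence interval reached from 1.01-fold to 1.77-fold higher. Without NPC replicate 3 the difference was 0.62 and the gene was called (adjusted p = 0.000222 from limma), so that 6 of the 8 genes were called, 2 of them higher, where that fit called 36.2% of all genes, 16.7% as higher. Scaling mattered as well. After centring on the median the Smad2 difference was 0.577 (limma adjusted p = 0.0250), and only the 1.5-fold threshold kept it from being called. Over all alternatives the adjusted p of Smad2 ranged from 0.000222 to 0.273.

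**Figure D3:**
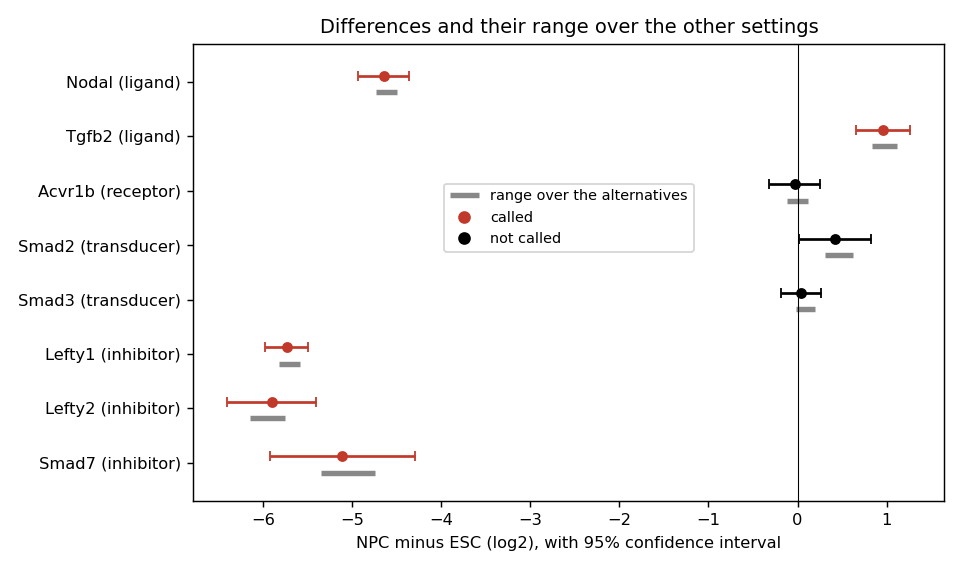
Difference of NPCs from ESCs (log2) for each pathway gene, as points with 95% confidence intervals from limma (red where called, black where not), above a grey bar for the range over the alternative settings in which the gene was tested. The 4 lower genes stay between -6.15 and -4.49 in all of these, while the ranges of Acvr1b and Smad3 cross 0.

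Among the NPC arrays the genes did not move as a group. Replicates 1 and 2 differed by at most 0.25 in size at any of the 8 genes. Replicate 3 differed from their mean by -1.09 at Smad7, by 0.72 at Lefty2, by -0.61 at Smad2 and by 0.36 or less in size at the other 5 genes. Over all genes, 3.34% deviated in replicate 3 by at least as much as Smad7, 7.73% by at least as much as Lefty2 and 10.9% by at least as much as Smad2. Against the ESC mean, Smad7 differed by -5.84 log2 units in replicate 3 and by -4.75 in replicates 1 and 2. The NPC values of Lefty2 and Smad7 were not checked against background, so no fold is given between NPC arrays. Few marker genes of other cell types could be set beside these values. Their names came mostly from the published list sorted by the rise in NPCs, so markers that did not rise are largely missing. Of the 8 genes of a neuron list 2 had names, Dcx at 4.86, 5.06 and 3.76 and Syt1 at 6.93, 7.02 and 4.90 in NPC replicates 1, 2 and 3. Of the 8 genes of a list for astrocytes and the oligodendrocyte lineage 2 had names, S100b at 6.32, 6.13 and 7.02 and Olig2 at 11.07, 10.96 and 11.67. A fibroblast list had 1 of 10 genes named, Twist1, at 6.66, 6.35 and 7.16, and a mesoderm and endoderm list had 0 of 10. The part of other cells in the values of Smad2, Smad7 and Lefty2 was not tested.

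**Figure D4:**
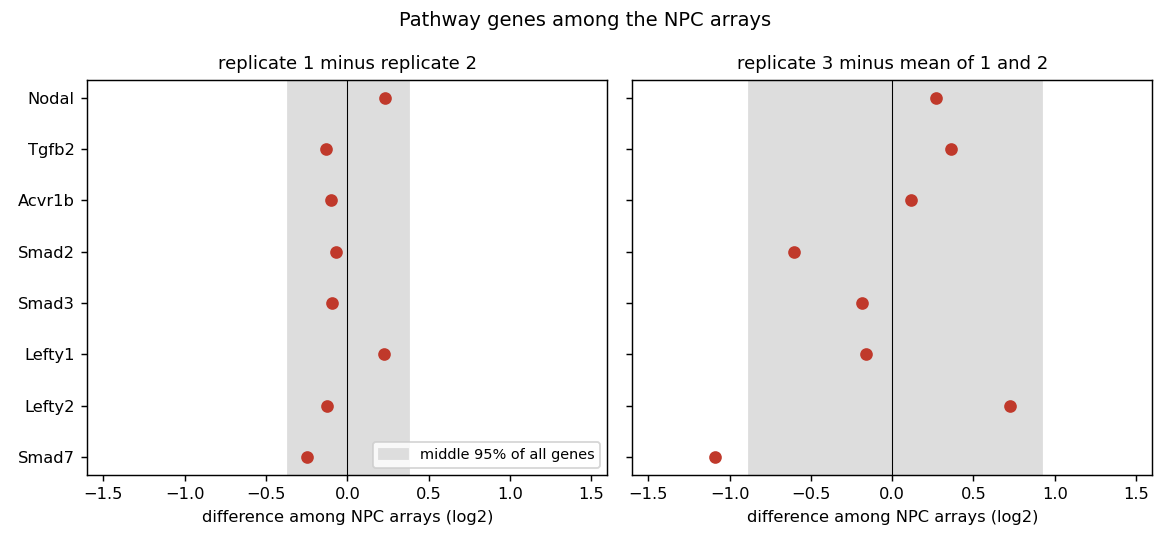
Differences among the NPC arrays (log2) for each pathway gene, replicate 1 minus replicate 2 at left and replicate 3 minus the mean of replicates 1 and 2 at right. Grey bands span the middle 95% of all genes, from -0.37 to 0.38 at left and from -0.88 to 0.92 at right, and Smad7 at -1.09 is the only 1 of the 8 genes outside its band.

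Likeness between genes was measured as the Euclidean distance between log2 profiles over the 6 arrays, after each gene's mean was subtracted, as a description in which the difference between cell types weighs most. The LEFTY genes were close to each other at 0.81, where Lefty1 was the 21st nearest gene to Lefty2 and Lefty2 the 37th nearest to Lefty1. Nodal lay at 1.38 from Lefty1, 1.39 from Smad7 and 1.61 from Lefty2, and Smad7 at 1.25 from Lefty1. All 4 lower genes were at least 5.68 from any of the other 4. The nearest genes to Nodal and Lefty1 were ENSMUSG00000019989_at at 0.17, which fell by 4.61, and ENSMUSG00000020077_at at 0.22, which fell by 5.85 on the log2 scale, and neither has a name here. The nearest genes to Tgfb2 were Ifnar1 at 0.082, Acp2 at 0.091 and Zdhhc17 at 0.12, but 3231 genes were within 1 of Tgfb2, against 48 of Lefty1 and 14 of Smad7. For Acvr1b, Smad2 and Smad3 between 9812 and 11966 genes were that near, and no neighbour is singled out.

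Of 44 further genes of the pathway that were listed by role, only 4 had a name at hand, and all 4 were called higher in NPCs. They were named from the list sorted by the rise in NPCs, which holds values of these same arrays. This count therefore carries no information on the direction of the pathway, and the p-values below are no fresh evidence of a rise. Tgfbr2, the type II receptor for TGF-beta ligands, read 4.85, 4.79 and 4.60 in ESCs and 7.41, 7.72 and 7.91 in NPCs. It rose by 2.94 log2 units (limma adjusted p = 4.26e-06, standard error 0.14), or 7.65-fold, with all NPC arrays above all ESC arrays. Acvr2a, a type II receptor for activin and Nodal, rose from 6.81 ± 0.08 to 7.65 ± 0.03 (SD, n = 3 arrays each), which is 1.78-fold (adjusted p = 0.000109 from limma). Gdf11, a ligand related to the activins, rose from 5.14 ± 0.37 to 6.01 ± 0.14 (SD, n = 3 arrays each), or 1.83-fold (adjusted p = 0.00663 from limma). Pcsk5, a proprotein convertase that cleaves precursors of TGF-beta family ligands, rose from 3.87 ± 0.08 to 4.95 ± 0.23 (SD, n = 3 arrays each), or 2.11-fold (adjusted p = 0.000319 from limma). Its low ESC values were not checked against background. By role, names were at hand for 1 of 8 other ligands, 2 of 9 other receptors and co-receptors, 0 of 6 extracellular antagonists, 0 of 11 intracellular components, 1 of 3 convertases and 0 of 7 induced targets.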

How the data were processed

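The authors hybridized RNA to Affymetrix mouse arrays and deposited log2 values made by RMA, which corrects background, quantile normalizes over the arrays and summarizes probes, here to 1 value per Ensembl gene through an updated annotation (BrainCDF) (its version and genome build: not given in the sources used here). From the 17208 rows, 64 control probe sets were left out, and no filter or further scaling was applied. No pair of arrays held identical values. Groups and replicate numbers came from the sample labels. NPCs were compared with ESCs in R 4.3.3 by limma 3.58.1, with lmFit and eBayes on all 6 arrays, no covariates and Benjamini-Hochberg adjustment over 17144 genes. The thresholds are those of the methods of the study, and its moderated Welch test was among the alternatives. The limma fit was tested on simulated data with known changes and equal noise in both groups. That run checked the code and not the calls in these data. Precision is limited by having 3 arrays of each cell type.

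Names of the 8 genes came with the list. Other rows were named where all 6 values equalled, within 0.0001, a named row of the tables of the study, which gave 2004 names, nearly all of genes that rose. The text names the 8 genes and all named genes of the pathway lists. Of the 3 nearest genes of each of the 8, it gives those with a name and only 2 identifiers without one. Genes near those that did not change are left out. Marker genes are named as checks. The members and lists were chosen with earlier results of these data known. Promoter windows came from RefSeq, and 5 motifs were searched on both strands. A percentile is the percent of all genes that an array reads no higher than the gene, as the mean of 3 arrays. Analyses used Python 3.11.15, pandas 2.3.3 and matplotlib 3.10.9. Alternatives were 4 other tests, the replicate number as a block, 2 scalings, 2 filters on low values, 2 fold change thresholds and each array left out in turn.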

Additional observations from a re-analysis of the deposited data

How the results depend on the processing

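Nodal, Lefty1, Lefty2 and Smad7 were called lower in NPCs under all 17 alternatives. Tgfb2 was called in all but 1 of the 16 in which it was tested. With a fold change over 2, it was no longer called, so that 0 of the 8 genes were called higher, and over all genes 3592 were called, 1615 higher and 1977 lower, in place of 5851, 2638 and 3213. The filter at the median of the mean value left Tgfb2 out, and 0 of the 7 pathway genes still tested were called higher. Over all 8572 genes that passed this filter, 1920 were called higher. With each array left out in turn, 1 or 2 of the 8 genes were called higher, the second being Smad2 without NPC replicate 3. These fits called 2490 to 2866 of all 17144 genes higher. Differences near 0 changed sign: that of Acvr1b was 0.016 after quantile normalization, 0.12 after centring on the median, 0.085 without ESC replicate 3 and 0.013 without NPC replicate 1, with a range from -0.12 to 0.085 over arrays left out, and that of Smad3 was -0.013 without NPC replicate 2, in a range from -0.013 to 0.10. The cause of these sign changes was not tested, and none of these values was called.

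Centring on the median moved the median difference of all genes from -0.036 to 0.12, and the called genes from 2638 higher and 3213 lower to 3302 and 2642. A replicate block in the fit gave 5867 called genes, and the same 5 of the 8 genes. The labels link ESC and NPC arrays by replicate number alone. Deviations of same-numbered arrays from their group means correlated across genes at 0.026, 0.011 and -0.0064. Those of arrays with different numbers correlated at -0.036 to 0.015. Whether same-numbered arrays shared a preparation or a batch was not tested.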
